A study of Rattus norvegicus with 12 samples.

Results

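The genes described here encode the proteasome and the proteins that assemble or open it. They were taken as every probe set with a single gene symbol beginning with Psma, Psmb, Psmc, Psmd, Psme or Psmg, leaving out the immune subunits Psmb8, Psmb9 and Psmb10. The rule found 56 probe sets of 42 genes, out of 14217 genes with 1 symbol on the array. By role these were 7 genes of the alpha ring and 6 of the beta ring of the 20S core, 6 of the 19S ATPase ring, 3 of the non-ATPase base and 8 of the 19S lid. A further 7 were assembly chaperones, 3 were activators that cap the core in place of the 19S regulator, and 2 shared only the prefix. Those were Psmc3ip, a meiotic recombination factor, and Psme3ip1, a partner of the activator subunit PSME3. Of the 56 probe sets 53 passed a filter on low intensity, and all 42 genes kept at least 1. The 3 under the filter were second probe sets of Psmb5, Psmc4 and Psmd11. A further 6 probe sets carried several symbols and were left out, so that the core gene Psmb6 and the activator gene Psme3 have no value here.

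The arrays read messenger RNA of papillary muscles, which anchor the tricuspid valve, from the right ventricles of 12 male LBNF1 rats. Each muscle was cultured for 12 h at 37 °C and paced at 1 Hz, and was held at a high or low mean stretch (target 16% or 4%) while it shortened cyclically by a high or low amount (target 16% or 4%). Each of the 4 combinations had 3 muscles from different animals: both inputs high, only stretch high, only shortening high, and both low, called low-low here. All groups were excised, unloaded and paced in the same medium, so no group shows the muscle as it is in the animal. Values are deposited log2 intensities of Affymetrix 3' arrays, and the number of arrays limits their precision.

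The 26S proteasome degrades proteins tagged with ubiquitin. Its 20S core is a barrel of alpha rings, which form the gate, and beta rings, which hold the proteolytic sites. The 19S regulator binds the tagged protein, removes the ubiquitin and threads the unfolded chain into the core with a ring of ATPases. In heart muscle the proteasome turns over sarcomere and signalling proteins. When it is inhibited, mammalian cells raise its subunit genes together through the transcription factor encoded by Nfe2l1, which is freed from the endoplasmic reticulum by p97, deglycosylated by Ngly1 and cleaved by Ddi2.

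The 3 low-low arrays stood apart from the other 9. Pearson's r, taken over probe sets that are no independent replicates, was 0.991 to 0.993 among them, 0.984 to 0.996 among the other 9 and 0.951 to 0.962 between both sets. The excess of 3' over 5' signal of the Gapdh and Actb control probe sets, averaged, was 1.36 ± 0.29 log2 (SD, n = 3) in the low-low arrays and 3.31 ± 0.51 (SD, n = 9) in the others, with no overlap. This 3' to 5' index reads how complete the labelled copies are, and its share in the low-low differences cannot be told apart from that of the mechanical group. The low-low animals were also the heaviest (305 to 318 against 267 to 297, unit not stated), and all were aged 75, with 72 to 85 in the other groups (unit not stated). All 8 cardiomyocyte markers passed the filter. Their mean level was 13.62 to 13.67 in the low-low arrays and 13.26 to 13.37 in the others, and 4 of 8 were higher and 1 lower in low-low. Endothelial markers (6 of 7 past the filter) averaged 7.57 to 8.42 in low-low and 7.43 to 8.10 elsewhere, with 2 higher and 2 lower. Fibroblast markers (6 of 6) averaged 8.70 to 8.85 against 8.24 to 8.79, with 1 higher and 1 lower. Macrophage markers (6 of 7) averaged 6.21 to 6.89 against 6.05 to 6.60, with 2 higher and 1 lower. Smooth muscle and pericyte markers (6 of 6) averaged 5.78 to 6.25 against 5.62 to 6.05, with 1 higher. Of the Schwann and red cell markers 1 of 4 each passed the filter, and the red cell marker Hbb was higher in low-low. These marker counts are at a limma adjusted p under 0.05, where 27.6% of all probe sets tested were higher and 28.6% lower. In whole muscle, fewer cells of a type and less RNA per cell cannot be told apart, and the part of cell makeup in the results was not tested.

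Proteasome genes were higher in the low-low muscles than in the other 3 groups in most cases. Of 53 probe sets 29 were higher and 11 lower at a limma adjusted p under 0.05, and 13 did not pass. Over all 18625 probe sets tested, 27.6% were higher and 28.6% lower, so the proteasome set held more higher calls and fewer lower calls than the background shares. Counted by gene, in a fit with 1 probe set per gene, 25 of 42 were higher and 8 lower, where 29.4% and 28.2% of 10316 genes were. The median log2 difference was 0.35 over the 53 probe sets, 0.44 over the brightest probe set of each gene and -0.05 over all probe sets tested. All 3 low-low arrays lay above all other 9 for 27 proteasome probe sets (22.7% of all tested) and below them for 9 (20.4% of all tested), and 17 overlapped. Replicate 3 of high stretch alone had the lowest core level of all 12 arrays, and without it 39 probe sets were called in place of 40. Without low-low replicate 3, 25 were higher and 7 lower.

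**Figure D1:**
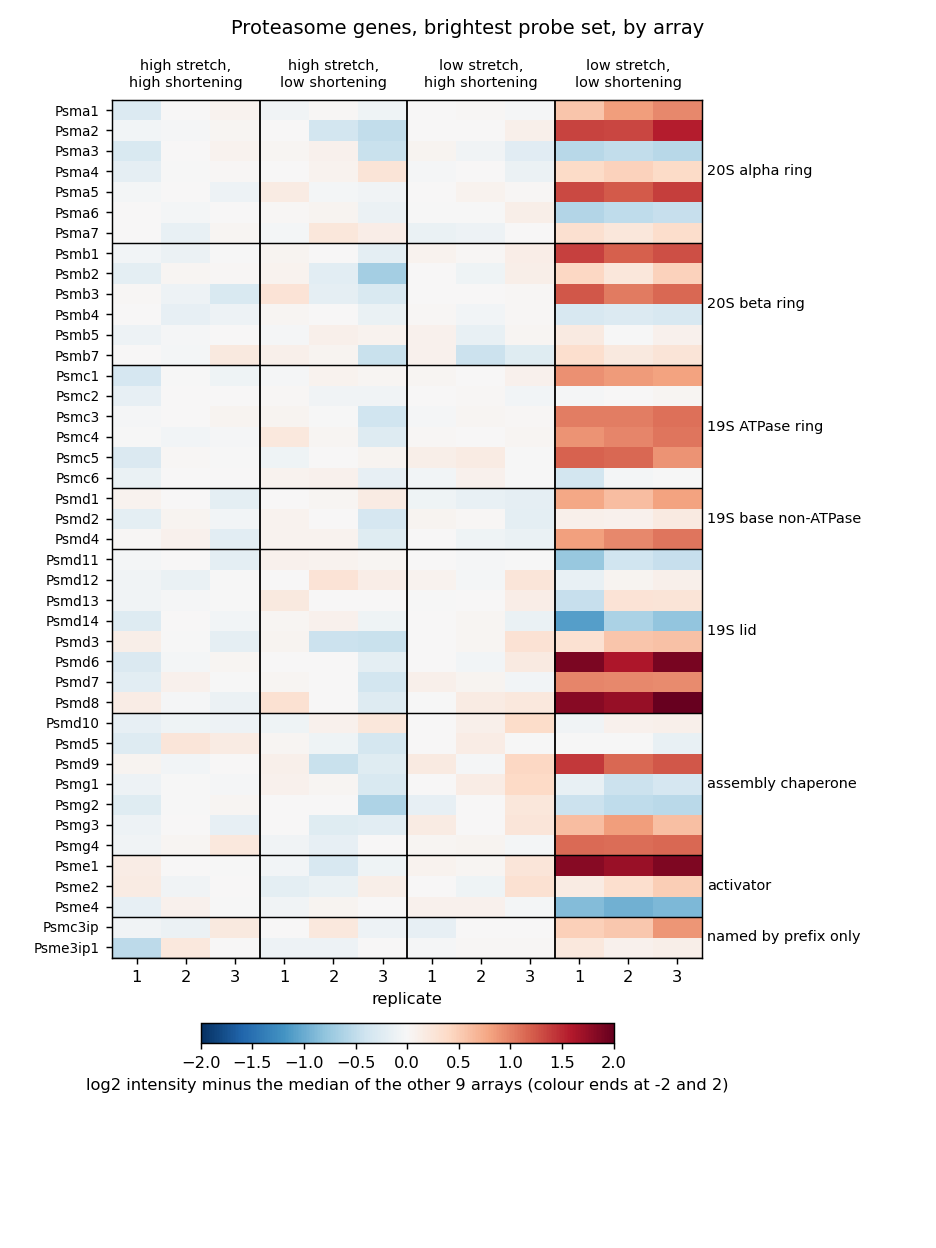
Colour shows the log2 intensity of the brightest probe set of each of 42 genes (rows, by role) on each of 12 arrays (columns, by group and replicate), minus the median of the 9 arrays outside the low-low group. The last 3 columns are red for 25 genes called higher and blue for the 8 called lower, while the first 9 columns stay near 0.

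The called genes did not all keep their call when the 3' to 5' index was added to the model. With this term 13 of the 40 called probe sets kept their call, all of them higher, and none of the 11 lower calls passed. In that fit 11.2% of all 18625 probe sets were higher in low-low and 6.87% lower. The index also widened the errors: the median SE of the 53 differences was 0.11 without it and 0.29 with it. Of the 27 lost calls 18 had estimates of the same sign that grew by any amount or shrank by no more than 1.5 times. These were 10 of the 11 lower ones, such as Psma6 (-0.52 without and -0.69 with the index), Psma3 (-0.44 and -0.63), Psmg2 (-0.42 and -0.88) and Psmd11 (-0.53 and -0.52), and 8 of the 16 higher ones, such as Psmd1 (0.77 and 0.73) and Psmd7 (1.00 and 0.78). The rest of the higher ones shrank by more or changed sign, such as Psmb3 (1.21 and 0.36), Psmc4 (0.99 and 0.48) and Psmc3 (1.08 and 0.64). The 13 were Psma1, Psma2, Psma4, Psma5 and Psmb1 of the core, Psmc1, Psmc5, Psmd6, Psmd8 and a Psmd14 probe set (1394082_at) of the regulator, the chaperone Psmg4, and the activators Psme1 and Psme4 (1368818_at). With it, Psmb2, Psmb7 and Psmd3 had estimates below 0 (-0.25, -0.15 and -0.12), none of them called. In the plot of class levels against the index, no array lies between an index of 1.69 and 2.56. Within the other 9 arrays the one with the highest index, 4.33, had the lowest core level (-0.28), and the one with the lowest index, 2.56, had the next lowest (-0.18). The rest of these had an index of 3.09 to 3.89 and core levels of -0.15 to -0.04. A link of index and level within the 9 was not tested.

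**Figure D2:**
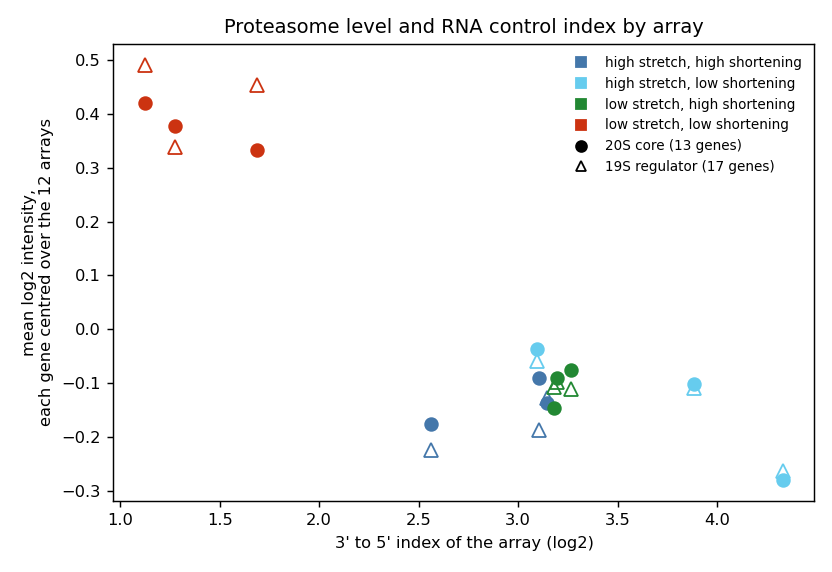
Each array has a filled circle (mean of 13 core genes) and an open triangle (mean of 17 regulator genes); y is the log2 level with each gene centred over the 12 arrays, and x is the 3' to 5' index in log2 units. The 3 low-low arrays sit at an index of 1.13 to 1.69 and above 0 in both classes, and the other 9 at 2.56 to 4.33 and below 0.

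Core and regulator genes were both mostly higher in low-low. Among 13 core genes, by their brightest probe set, 9 were higher, 3 lower and 1 was not called, with a median difference of 0.41. Among 17 regulator genes 10 were higher, 2 lower and 5 were not called, with a median of 0.77. The lower regulator genes were Psmd11 and Psmd14, and another Psmd14 probe set was called higher. Of all genes in the fit with 1 probe set per gene, 29.4% were higher and 28.2% lower. These shares also stand beside the counts of the single rings, base and lid below. Averaged over genes, the core lay 0.50 log2 and the regulator 0.57 log2 higher in the low-low arrays than in the other 9. The core mean minus the regulator mean was -0.051 ± 0.082 log2 (SD, n = 3) in low-low and 0.017 ± 0.040 (SD, n = 9) elsewhere, and these ranges overlapped. 

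**Figure D3:**
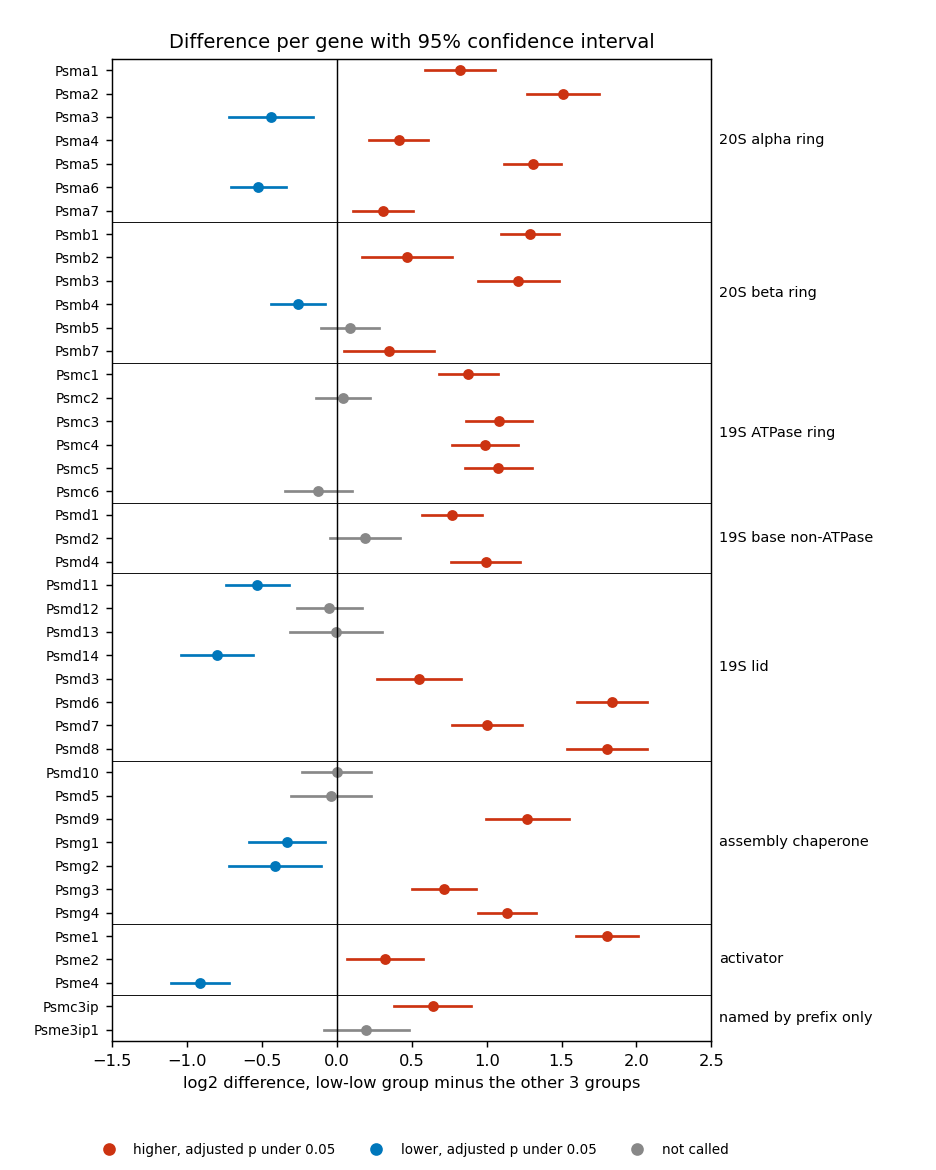
Points are log2 differences (x) of the low-low group from the mean of the other 3 groups for the brightest probe set of each of 42 genes (y, by role), with 95% confidence intervals from limma. Psmd6, Psmd8 and Psme1 lie near 1.8, and the lower genes reach -0.91 at Psme4.

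In the alpha ring, which gates the core and binds the regulator, 5 of 7 genes were higher and 2 lower. Psma5 read 10.47, 10.52 and 10.41 with both inputs high, 10.68, 10.48 and 10.45 with only stretch high, 10.51, 10.59 and 10.53 with only shortening high, and 11.84, 11.73 and 11.90 in the low-low muscles. The 3 low-low arrays lay above every other array by over 1 log2, and the other groups overlapped. The difference was 1.31 ± 0.09 (SE; 2.48-fold, adjusted p = 1.43e-07). Psma2 read 10.54, 10.56 and 10.62 with both inputs high, 10.59, 10.22 and 10.09 with only stretch high, 10.60, 10.58 and 10.68 with only shortening high, and 11.94, 11.91 and 12.16 in the low-low muscles. It was the alpha gene with the largest difference, 1.51 ± 0.11 (SE; 2.84-fold, adjusted p = 3.07e-07), and within the other groups replicates 2 and 3 of high stretch alone were lowest. Psma1 lay at 10.06, 10.34 and 10.45 in the low-low muscles, against 9.22 to 9.57 (median 9.50) in the other 9. Its difference was 0.82 ± 0.11 (SE; adjusted p = 3.82e-05), with no overlap. Psma4 (0.41) and Psma7 (0.31) were also higher, the latter not called without low-low replicate 3 (0.28, adjusted p = 0.0566) or after repeated quantile normalization (0.045, adjusted p = 0.710).

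The 2 alpha genes that went the other way belong to the same ring. Psma6 read 13.01, 12.96 and 12.99 with both inputs high, 13.03, 13.05 and 12.88 with only stretch high, 12.99, 12.98 and 13.11 with only shortening high, and 12.40, 12.48 and 12.54 in the low-low muscles. Its low-low arrays lay below all others, with a difference of -0.52 ± 0.08 (SE; adjusted p = 1.91e-04). Psma3 lay at 9.42, 9.49 and 9.42 in the low-low muscles, against 9.53 to 10.06 (median 9.97) in the other 9. The groups did not overlap, although replicate 3 of high stretch alone came close, and the difference was -0.44 ± 0.13 (SE; adjusted p = 0.0111).

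In the beta ring 4 of 6 genes were higher, 1 lower and 1 was not called. Psmb1, a structural beta subunit, read 11.08, 11.01 and 11.13 with both inputs high, 11.19, 11.13 and 10.93 with only stretch high, 11.19, 11.16 and 11.26 with only shortening high, and 12.49, 12.32 and 12.42 in the low-low muscles. The low-low arrays lay above all others by over 1 log2, and the difference was 1.29 ± 0.09 (SE; 2.44-fold, adjusted p = 1.87e-07). Psmb3, also without proteolytic activity, lay at 11.45, 11.25 and 11.36 in the low-low muscles, against 9.89 to 10.48 (median 10.21) in the other 9. The difference was 1.21 ± 0.12 (SE; adjusted p = 5.33e-06), and the ranges were separate. With the 3' to 5' index in the model it was 0.36 (adjusted p = 0.347) and not called. Psmb4, a structural subunit as well, lay at 12.60, 12.63 and 12.59 in the low-low muscles, against 12.75 to 12.94 (median 12.91) in the other 9. It was lower by a small amount in every low-low array, -0.26 ± 0.08 (SE; adjusted p = 0.0175), and was not called without low-low replicate 1 (-0.26, adjusted p = 0.0512) or 3 (-0.25, adjusted p = 0.0603).

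The measured proteolytic beta subunits, Psmb5 and Psmb7, had smaller differences than the structural Psmb1 and Psmb3, which was not tested between genes. The structural subunits did not act as a class, since Psmb2 (0.47) was near Psmb7 (0.35) and Psmb4 was lower (-0.26). Psmb5, which carries the chymotrypsin-like site, lay at 12.16, 11.96 and 12.07 in the low-low muscles, against 11.83 to 12.08 (median 11.97) in the other 9. Its ranges overlapped and the difference of 0.085 ± 0.089 (SE; adjusted p = 0.435) was not called, with a 95% confidence interval of -0.11 to 0.28. Psmb7, which carries the trypsin-like site, was higher by 0.35 ± 0.14 (SE; adjusted p = 0.0488), a call that was lost when any of 8 arrays was left out. The adjusted p rose to 0.148 without low-low replicate 1 (0.31). The others, with values of 0.29 to 0.38 and adjusted p of 0.0553 to 0.113, were replicates 2 and 3 of low-low, 1 and 2 of both inputs high, 3 of high stretch alone, and 2 and 3 of high shortening alone. Repeated quantile normalization ended it as well (0.21, adjusted p = 0.221). Psmb2, a structural subunit, lay at 11.42, 11.24 and 11.47 in the low-low muscles, against 10.33 to 11.12 (median 11.01) in the other 9. It was higher by 0.47 ± 0.14 (SE; adjusted p = 0.0116), and was not called without low-low replicate 3 (0.42, adjusted p = 0.0559) or after repeated quantile normalization (0.32, adjusted p = 0.0588).

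In the ATPase ring, whose 6 subunits unfold the substrate, 4 genes were higher and 2 were not called. Psmc3 read 10.28, 10.30 and 10.34 with both inputs high, 10.35, 10.29 and 9.90 with only stretch high, 10.27, 10.34 and 10.32 with only shortening high, and 11.32, 11.33 and 11.40 in the low-low muscles. The low-low arrays lay about 1 log2 above the rest, with a difference of 1.08 ± 0.10 (SE; 2.12-fold, adjusted p = 2.64e-06). Psmc5 lay at 11.22, 11.20 and 10.95 in the low-low muscles, against 9.76 to 10.22 (median 10.05) in the other 9. Its difference was also 1.08 ± 0.10 (SE; adjusted p = 2.84e-06), and it kept its call with the index in the model. Psmc4 lay at 11.16, 11.24 and 11.32 in the low-low muscles, against 10.00 to 10.46 (median 10.26) in the other 9. The difference was 0.99 ± 0.10 (SE; adjusted p = 5.42e-06), without overlap. With the index the differences of Psmc3 and Psmc4 were 0.64 and 0.48 (adjusted p = 0.121 and 0.214), and neither was called. Psmc1 was higher by 0.88 ± 0.09 (SE; adjusted p = 5.69e-06). Psmc2 had 0.042 ± 0.083 (SE; adjusted p = 0.689) and a 95% confidence interval of -0.14 to 0.22, which leaves out differences as large as those of the 4 higher ATPase genes.

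Among the 3 subunits of the base without ATPase activity, 2 were higher. Psmd4, a ubiquitin receptor, lay at 10.60, 10.74 and 10.85 in the low-low muscles, against 9.54 to 9.87 (median 9.78) in the other 9. Its difference was 0.99 ± 0.11 (SE; adjusted p = 7.63e-06). Psmd1, a scaffold, lay at 10.98, 10.82 and 10.99 in the low-low muscles, against 9.99 to 10.36 (median 10.20) in the other 9. It was higher by 0.77 ± 0.09 (SE; adjusted p = 1.89e-05), and neither gene's ranges overlapped. Psmd2, the other scaffold, lay at 11.50, 11.48 and 11.56 in the low-low muscles, against 11.05 to 11.46 (median 11.39) in the other 9. Its low-low arrays were the highest, but its difference of 0.19 ± 0.11 (SE; adjusted p = 0.158) was not called.

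The lid, which docks on the core and removes ubiquitin, held the largest differences and also opposite calls. By their brightest probe sets 4 of 8 genes were higher, 2 lower and 2 not called. The lower ones were Psmd11 and Psmd14, and Psmd14 also had a probe set called higher. Psmd6 read 9.63, 9.87 and 9.95 with both inputs high, 9.92, 9.93 and 9.73 with only stretch high, 9.93, 9.87 and 10.11 with only shortening high, and 11.81, 11.53 and 11.82 in the low-low muscles. The other groups overlapped and the low-low arrays stood apart by more than 1.4 log2. The difference was 1.84 ± 0.11 (SE; 3.58-fold, adjusted p = 4.88e-08). Psmd8 read 9.49, 9.31 and 9.21 with both inputs high, 9.64, 9.34 and 9.08 with only stretch high, 9.33, 9.51 and 9.55 with only shortening high, and 11.16, 11.09 and 11.32 in the low-low muscles. It was higher by 1.80 ± 0.12 (SE; 3.49-fold, adjusted p = 1.60e-07), with no overlap. Psmd7, the inactive partner of the lid deubiquitinase, was higher in both its probe sets, by 1.00 ± 0.11 (SE; adjusted p = 7.29e-06) and 0.66 ± 0.11 (SE; adjusted p = 2.60e-04). Psmd3 was higher by 0.55 ± 0.13 (SE; adjusted p = 0.00312).

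Psmd11, a lid scaffold that touches the core, was lower in both tested probe sets. Its brightest lay at 11.80, 12.16 and 12.09 in the low-low muscles, against 12.36 to 12.63 (median 12.56) in the other 9. The differences were -0.53 ± 0.10 (SE; adjusted p = 4.92e-04) and -0.41 ± 0.08 (SE; adjusted p = 0.00114), and neither overlapped. Psmd12 (-0.051 ± 0.10, SE) and Psmd13 (-0.0067 ± 0.14, SE) were not called, with adjusted p of 0.684 and 0.972.

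Psmd14, the deubiquitinase of the lid, gave opposite answers from its 3 probe sets. The brightest, 1383429_at, read 11.53, 11.79 and 11.74 with both inputs high, 11.83, 11.87 and 11.70 with only stretch high, 11.79, 11.82 and 11.65 with only shortening high, and 10.69, 11.15 and 10.99 in the low-low muscles. It was lower by -0.80 ± 0.11 (SE; adjusted p = 6.00e-05), with no overlap. Probe set 1394082_at read 7.71, 7.86 and 7.95 with both inputs high, 7.92, 8.01 and 7.45 with only stretch high, 7.84, 8.05 and 7.86 with only shortening high, and 10.36, 10.08 and 10.32 in the low-low muscles. This was the largest difference of any proteasome probe set, 2.40 ± 0.13 (SE; 5.28-fold, adjusted p = 2.10e-08). Probe set 1386073_at overlapped between the groups and was not called (0.11 ± 0.23, SE; adjusted p = 0.714). No direction is given for the gene.

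The activator gene Psme4, whose product caps the core without ATP, was split in the same way. Probe set 1368817_at read 12.52, 12.78 and 12.68 with both inputs high, 12.61, 12.74 and 12.69 with only stretch high, 12.78, 12.78 and 12.65 with only shortening high, and 11.82, 11.73 and 11.79 in the low-low muscles. It was lower by -0.91 ± 0.09 (SE; adjusted p = 3.31e-06), with no overlap. Probe set 1387345_at lay at 11.04, 10.54 and 10.90 in the low-low muscles, against 10.01 to 10.41 (median 10.12) in the other 9, and was higher by 0.66 ± 0.12 (SE; adjusted p = 4.19e-04). Probe set 1368818_at was higher by 0.53 ± 0.12 (SE; adjusted p = 0.00298), with 1 low-low array inside the range of the others. Of the 8 genes with more than 1 tested probe set, 6 had probe sets that differed in sign or call: Psmd14, Psme4, Psmc6, Psmd9, Psme1 and Psmb5. For Psmc6, an ATPase, 1379850_at was lower (-0.69 ± 0.11, SE; adjusted p = 2.15e-04), while 1384323_at (-0.12 ± 0.10, SE; adjusted p = 0.332) and 1382385_at (0.053 ± 0.16, SE; adjusted p = 0.801) were not called. The second Psmb5 probe set, 1385532_x_at, was lower by -0.33 ± 0.09 (SE; adjusted p = 0.00857), but it read only 4.77 to 5.30 and lost its call without low-low replicate 3 (-0.27, adjusted p = 0.0565). Positions of the probe sets on their transcripts were not used here.

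**Figure D4:**
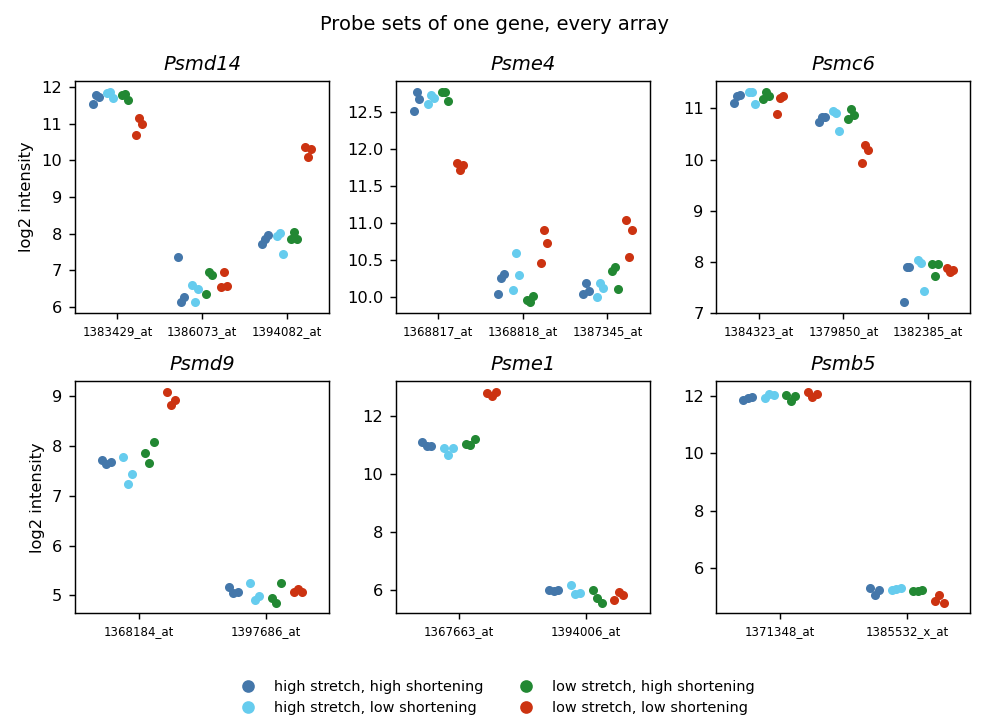
Each panel is 1 gene and each column of points 1 of its tested probe sets, with the log2 intensity on 12 arrays coloured by group; the y axes differ between panels. In the Psmd14 and Psme4 panels the low-low points lie below the other groups in the brightest probe set and above them in another.

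The paired activators Psme1 and Psme2 form a ring that opens the core gate and is induced by interferon gamma. Psme1 read 11.10, 10.96 and 10.96 with both inputs high, 10.90, 10.63 and 10.87 with only stretch high, 11.03, 10.99 and 11.20 with only shortening high, and 12.79, 12.69 and 12.82 in the low-low muscles. The low-low arrays lay above the others by more than 1.4 log2, and the difference was 1.80 ± 0.09 (SE; 3.49-fold, adjusted p = 2.03e-08). A second, much dimmer probe set, 1394006_at, read 5.56 to 6.16 and was not called (-0.100 ± 0.11, SE; adjusted p = 0.468). Psme2 lay at 10.90, 11.08 and 11.24 in the low-low muscles, against 10.54 to 11.04 (median 10.74) in the other 9. It was higher by only 0.32 ± 0.12 (SE; adjusted p = 0.0345), its ranges overlapped, and leaving out any of 8 arrays ended the call. Without low-low replicate 2 or 3 it was 0.32 (adjusted p = 0.0906) or 0.24 (adjusted p = 0.173). Without replicate 2 or 3 of both inputs high, 1 or 2 of high stretch alone, or 1 or 2 of high shortening alone, the adjusted p was 0.0513 to 0.0573. After repeated quantile normalization the difference was 0.17 (adjusted p = 0.236).

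Of the 7 assembly chaperones 3 were higher, 2 lower and 2 not called, with a median of -0.0022. The shares, 42.9% and 28.6%, stand beside 29.4% and 28.2% of all genes in the fit with 1 probe set per gene. Psmg4, which acts with Psmg3 in building the alpha ring, lay at 9.49, 9.48 and 9.51 in the low-low muscles, against 8.19 to 8.56 (median 8.36) in the other 9. Its difference was 1.14 ± 0.09 (SE; 2.20-fold, adjusted p = 4.98e-07). Psmg3 lay at 7.65, 7.87 and 7.63 in the low-low muscles, against 6.79 to 7.27 (median 7.04) in the other 9, higher by 0.71 ± 0.10 (SE; adjusted p = 5.99e-05). Psmd9, a chaperone of the ATPase ring, lay at 9.09, 8.83 and 8.93 in the low-low muscles, against 7.24 to 8.09 (median 7.68) in the other 9. It was higher by 1.27 ± 0.13 (SE; 2.41-fold, adjusted p = 4.32e-06), and its dim second probe set was not called (0.032 ± 0.11, SE; adjusted p = 0.815).

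Psmg1 and Psmg2, which work as a complex in the same step, were the chaperones lower in low-low. Psmg1 lay at 9.65, 9.36 and 9.46 in the low-low muscles, against 9.49 to 10.20 (median 9.80) in the other 9, a difference of -0.33 ± 0.12 (SE; adjusted p = 0.0291). Psmg2 lay at 9.61, 9.53 and 9.50 in the low-low muscles, against 9.43 to 10.27 (median 10.05) in the other 9, a difference of -0.42 ± 0.14 (SE; adjusted p = 0.0243). Both overlapped with the other arrays, and neither was called without low-low replicate 2 (-0.27 and -0.41, adjusted p = 0.132 and 0.0723) or 3 (-0.32 and -0.39, adjusted p = 0.0904 and 0.0826). Psmd5 and Psmd10, chaperones of the ATPase ring, had -0.042 ± 0.12 (SE; adjusted p = 0.793) and -0.0022 ± 0.10 (SE; adjusted p = 0.987). Of the genes that share only the prefix, Psmc3ip was higher by 0.64 ± 0.12 (SE; adjusted p = 5.72e-04), and Psme3ip1 was not called (0.20 ± 0.13, SE; adjusted p = 0.218).

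With the other input low, each comparison set the low-low group against a group with 1 high input, so both share the low-low arrays. High against low stretch at low shortening had 9 proteasome probe sets higher and 26 lower of 53, where 24.1% and 24.4% of all were. High against low shortening at low stretch had 11 higher and 26 lower, where 23.4% and 23.6% of all were. Those 11 became 7 without replicate 2 or 3 of low-low, or 2 or 3 of high shortening alone. Psme1 differed by -1.96 ± 0.12 (SE; adjusted p = 1.07e-07) with stretch and by -1.69 ± 0.12 (SE; adjusted p = 3.71e-07) with shortening. Psmd6 differed by -1.86 ± 0.13 (SE; adjusted p = 4.27e-07) and -1.75 ± 0.13 (SE; adjusted p = 7.68e-07). Opposite to these, Psma6 was higher with stretch (0.51 ± 0.10, SE; adjusted p = 0.00142) and with shortening (0.55 ± 0.10, SE; adjusted p = 8.11e-04). The median over core genes was -0.36 with stretch and -0.46 with shortening, and over regulator genes -0.75 and -0.81.

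With the other input high, no difference in a proteasome probe set was detectable. For stretch at high shortening and for shortening at high stretch, 0 of 53 passed limma's adjusted threshold, nor did any of all 18625 (0% each). At an unadjusted p under 0.05 the proteasome count was 0 in both, where 3.55% and 4.35% of all probe sets passed, and a fit without the low-low arrays also called 0. The smallest unadjusted p for stretch were those of Psmd10 (-0.27 ± 0.13, SE), Psmg3 (-0.23 ± 0.12, SE) and Psmc1 (-0.18 ± 0.11, SE). For shortening they were those of Psma2 (0.27 ± 0.14, SE), Psme1 (0.20 ± 0.12, SE) and Psmd12 (-0.21 ± 0.12, SE). The 95% confidence intervals of all 53 ran from -0.77 (Psmd14) to 0.61 (Psmb7) for stretch and from -0.59 (Psmc6) to 0.81 (Psmd14) for shortening. Changes of 1 log2 thus lay outside every interval. The median interval reached 0.29 log2 to either side, and differences within an interval could not be shown at this number of arrays.

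**Figure D5:**
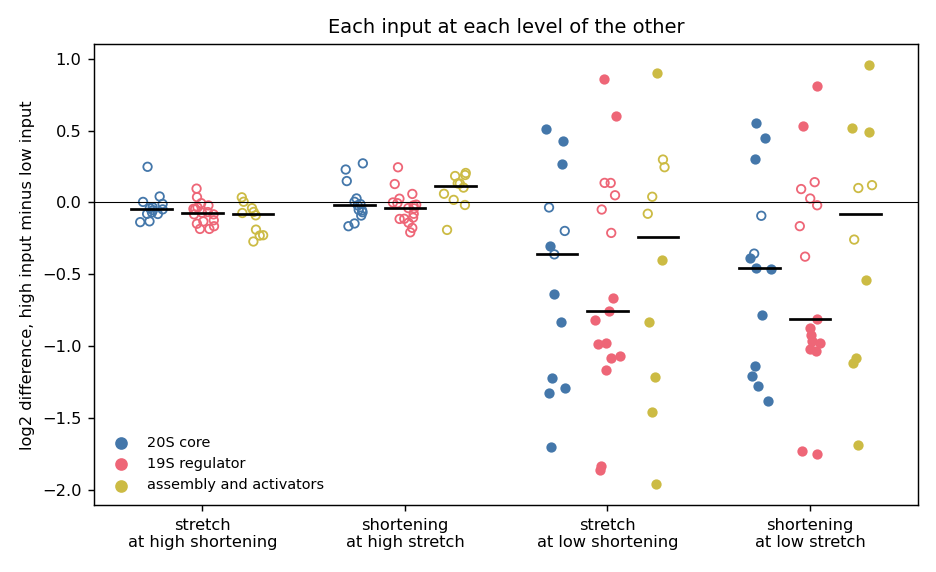
Each point is the brightest probe set of a core gene (13), a regulator gene (17), or an assembly or activator gene (10), and y is the log2 difference of high minus low input in the 4 comparisons on x; filled points have an adjusted p under 0.05 and bars are class medians. All points of the first 2 comparisons are open and lie between -0.27 and 0.27, while the 2 that involve the low-low group spread from -1.96 to 0.96.

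The main effects average over both levels of the other input. Stretch had 6 probe sets higher and 23 lower (14.4% and 19.2% of all), and shortening 4 higher and 24 lower (14.4% and 17.1% of all). The few higher calls were unsteady: for stretch they became 2 without replicate 1 of low-low or of high shortening alone. They became 3 without replicate 2 or 3 of both inputs high, 2 of high stretch alone or 2 of high shortening alone. For shortening they became 9 after repeated quantile normalization. Their interaction, the effect of 1 input at high minus that at low level of the other, was called for 22 higher and 6 lower of 53 (17.1% and 15.2% of all). It was largest for Psmd14 (1394082_at, 2.38 ± 0.22, SE; adjusted p = 1.17e-05), Psme1 (1.90 ± 0.16, SE; adjusted p = 7.45e-06) and Psmd6 (1.71 ± 0.19, SE; adjusted p = 3.77e-05). With the index in the model 3 of these 28 interactions kept their call, where 5.93% of all probe sets were called. They were Psmc5 (1.51), Psmg4 (1.44) and Psme1 (1.58). Psmd14 (1394082_at, 1.75, adjusted p = 0.0621) and Psmd6 (1.49, adjusted p = 0.0744) were not called. The median SE of the 53 interactions was 0.19 without and 0.42 with the index. Of the 25 lost calls 16 had estimates of the same sign that grew by any amount or shrank by no more than 1.5 times. Examples were Psma1 (0.76 without and 1.02 with the index), Psmc1 (0.64 and 1.02), Psmc6 (-0.75 and -1.08) and Psma6 (-0.55 and -0.78). Others shrank by more, such as Psmd8 (1.71 and 0.55), Psmd9 (1.27 and 0.51) and Psmc4 (0.94 and 0.24), and Psmb3 changed sign (1.08 and -0.091). In that fit 6 of 35 calls for stretch at low shortening and 11 of 37 for shortening at low stretch were kept, where 11.2% and 17.6% of all were called. For the interaction and for stretch, those proteasome counts out of 53 are near the background.

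The other parts of the pathway were read from lists of genes. Of 5 genes on the immune proteasome list 4 were tested. All 4 were higher in low-low, where 27.6% of all probe sets were. Psmb9 was higher by 2.30 ± 0.21, Psmb10 by 1.71 ± 0.13 and Psmb8 by 1.35 ± 0.20 (SE), subunits that replace the constitutive proteolytic ones. The peptide transporter Tap1 was higher by 0.83 ± 0.21 (SE). In this order the adjusted p were 2.46e-06, 5.64e-07, 1.09e-04 and 0.00428. Psmb9 read 9.47, 9.95 and 10.43 in the low-low muscles and 7.07 to 8.05 in the other 9. With the index in the model the 3 subunits stayed called (3.08, 1.87 and 2.09), and Tap1 was not (0.067, adjusted p = 0.950). Of 12 other proteasome-bound proteins 4 were higher and 4 lower (33.3% each), near the background of 27.6% and 28.6%. The higher ones were Akirin2 (2.00), a nuclear import factor of proteasomes, the ubiquitin receptor Adrm1 (1.44), the lid protein Sem1 (0.91) and the core maturation factor Pomp (0.87). The lower ones were the deubiquitinase Usp14 (-0.47), the ligase Ube3c (-0.41), Zfand5 (-0.34) and Txnl1 (-0.32). Of these 8 the index left Adrm1 (1.28) and Pomp (0.95) called. Of the ubiquitin and E1 list 2 of 6 were tested, and the E1 enzyme Uba6 was lower by -0.95 ± 0.15 (SE; adjusted p = 2.19e-04), and had -0.23 (adjusted p = 0.731) with the index in the model. The main E1 gene, Uba1, was not called (-0.27 ± 0.13, SE; adjusted p = 0.100), and with the index it was called lower (-1.08, adjusted p = 0.0279).

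Upstream of the subunits, 4 of 8 regulators were higher (50%) and 1 lower (12.5%), beside 27.6% and 28.6% of all probe sets. Nfe2l1 read 8.23, 8.004 and 8.06 with both inputs high, 8.14, 8.20 and 8.01 with only stretch high, 8.06, 7.65 and 8.11 with only shortening high, and 10.91, 11.03 and 10.96 in the low-low muscles. The low-low arrays stood above all others by more than 2.6 log2. The difference was 2.92 ± 0.11 (SE; 7.54-fold, adjusted p = 2.55e-09). Its small Maf partners Maff (1.94 ± 0.15), Mafk (0.79 ± 0.22) and Mafg (0.42 ± 0.13, all SE) were higher too, and the forkhead factor Foxo3 was lower (-0.53 ± 0.09, SE). The related factor Nfe2l2 was not called (-0.16 ± 0.11, SE; adjusted p = 0.245). With the index in the model Nfe2l1 (2.74, adjusted p = 5.21e-04) and Maff (1.88, adjusted p = 0.0139) stayed called. Mafk (0.41) and Foxo3 (-0.28) did not, and Mafg turned to -0.28 without passing. Among 12 tested p97 and shuttle genes 5 were higher (41.7%) and 3 lower (25%), beside 27.6% and 28.6% of all probe sets. They included the protease Ddi2, higher by 1.12 ± 0.17 (SE; adjusted p = 1.10e-04), p97 itself (Vcp, 0.67 ± 0.09, SE), its cofactors Nsfl1c (1.31) and Faf1 (0.86), and the shuttle gene Ubqln4 (0.54). The glycanase Ngly1 was lower by -0.46 ± 0.18 (SE; adjusted p = 0.0471), as were Rad23b (-0.26) and Ubqln1 (-0.27). Of these 8 the index left Faf1 called (1.31), and Ddi2 had 0.18 (adjusted p = 0.797). These are messenger RNA levels, and cleavage or activity of the factor was not measured.

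Promoters of the proteasome genes were searched because Nfe2l1 and its Maf partners bind the antioxidant response element. The genes include chaperones, activators and those that share only the prefix. RefSeq promoters of the rat assembly GRCr8, 250 bases before to 50 after the start, were found for 38 of 42 genes. The element core TGACNNNGC, on either strand, occurred in 7 of 38 (18.4%) and in 12.1% of 33469 promoters. Genes were placed by their brightest probe set. Matches lay in 4 of 23 genes higher in low-low (Psmb2, Psmd1, Psmd3 and Psmd9) and in 2 of 7 lower (Psma3 and Psme4). Of the 8 not called, Psmb5 had a match. The other Psme4 probe sets were called higher, so the direction of that gene is not settled. The promoters of 2 higher and 2 lower genes follow, with the core in capitals, read as GCNNNGTCA where it lies on the other strand:
Psmb2 promoter (chr5:144254808-144255107, + strand): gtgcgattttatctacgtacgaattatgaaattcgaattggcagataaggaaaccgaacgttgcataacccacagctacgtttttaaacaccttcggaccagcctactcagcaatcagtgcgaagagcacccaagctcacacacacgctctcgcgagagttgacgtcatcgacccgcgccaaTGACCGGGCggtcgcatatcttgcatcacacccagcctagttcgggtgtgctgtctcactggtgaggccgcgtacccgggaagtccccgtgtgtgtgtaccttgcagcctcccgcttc
Psmd9 promoter (chr12:39018215-39018514, - strand): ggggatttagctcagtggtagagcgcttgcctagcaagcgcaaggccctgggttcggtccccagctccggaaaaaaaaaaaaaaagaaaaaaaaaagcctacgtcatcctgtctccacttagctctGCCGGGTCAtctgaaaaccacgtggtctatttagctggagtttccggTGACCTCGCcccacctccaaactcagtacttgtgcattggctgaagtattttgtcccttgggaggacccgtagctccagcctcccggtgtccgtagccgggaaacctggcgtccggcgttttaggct
Psma3 promoter (chr6:95219499-95219798, + strand): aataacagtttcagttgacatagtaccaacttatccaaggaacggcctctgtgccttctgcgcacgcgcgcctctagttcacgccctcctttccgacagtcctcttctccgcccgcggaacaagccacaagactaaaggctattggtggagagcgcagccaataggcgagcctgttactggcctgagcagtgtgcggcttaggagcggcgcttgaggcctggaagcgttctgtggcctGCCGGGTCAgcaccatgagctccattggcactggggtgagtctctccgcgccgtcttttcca
Psme4 promoter (chr14:108706393-108706692, + strand): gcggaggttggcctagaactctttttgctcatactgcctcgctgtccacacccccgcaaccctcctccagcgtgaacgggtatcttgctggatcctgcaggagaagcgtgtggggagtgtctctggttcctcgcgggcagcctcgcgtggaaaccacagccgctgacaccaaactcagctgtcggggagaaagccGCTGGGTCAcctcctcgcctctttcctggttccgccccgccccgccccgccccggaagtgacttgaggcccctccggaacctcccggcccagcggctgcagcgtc
The letters thus occurred in promoters of genes on both sides of 0 in low-low, by their brightest probe sets. A CCAAT box, on either strand, occurred in 19 of 38 (50%) and in 37.5% of all promoters: in 15 of 23 higher genes, 1 of 7 lower and 3 of 8 not called. In Psmb2 a CCAAT match overlaps the element core by 1 base. A match is a description of the sequence and not of binding.

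Several subunits have near copies in the genome. RefSeq names pseudogenes for 17 of the 42 genes, up to 7 for Psmb3, and whether probe sets also read such copies was not tested.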

How the data were processed

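The deposited tables hold log2 intensities. Per the submitters' processing notes the authors made these log2 values with RMA, of no stated version. A second deposited table is the subset of 16391 probe sets that the authors kept above an intensity, with the same log2 values. Of 31042 probe sets that were not controls, 18625 had a mean at or above the 40th percentile (4.91) and entered the tests. Limma 3.58.1 (R 4.3.3) estimated 1 mean for each group from all 12 arrays, and was tested on simulated data. Benjamini-Hochberg adjustment covered all 18625, at a threshold of 0.05. The brightest probe set described a gene. Full values are given for up to 3 genes of smallest adjusted p per role, every gene called against its role, every gene whose probe sets disagree, and up to 4 genes per list. Members, lists, tests and this rule were chosen with earlier results of these data known, and the promoter motifs after the values were seen. Genes were matched to RefSeq by gene number. The main fit did not pair arrays by replicate number. Residuals of 18 same-number pairs had r of -0.158 to 0.213, and those of 36 other pairs -0.253 to 0.281. With 3 arrays per group these values cannot settle whether the arrays were paired. Figures were drawn with matplotlib 3.10.9. Alternatives were no filter, the authors' filtered table, 1 probe set per gene, quantile normalization run again, a prior both trended and robust, a replicate block, the 3' to 5' index in the model, leaving out each array, and a fit without the low-low group. The index term for list genes was added after the data were seen.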

Additional observations from a re-analysis of the deposited data

Results flagged for a closer look

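The effect of 1 input differed with the level of the other, by limma's interaction term at an adjusted p under 0.05, in 28 proteasome probe sets. These were 22 higher and 6 lower of 53, where 17.1% and 15.2% of all probe sets were. With the 3' to 5' index in the model 3 of the 28 kept their call: Psmc5, Psmg4 and Psme1. Values given here are from the fit without the index. They are log2 differences, the effect of an input at the high level of the other minus that at the low level. A positive value goes with a higher level in low-low. In the 20S core they were 1.66 for Psma2, 1.21 for Psma5, 1.19 for Psmb1, 1.08 for Psmb3, 0.76 for Psma1 and -0.55 for Psma6. In the ATPase ring and base they were 1.16 for Psmc3, 0.94 for Psmc4, 0.90 for Psmc5, 0.64 for Psmc1, -0.75 for Psmc6 (1379850_at), 1.02 for Psmd4 and 0.76 for Psmd1. In the lid they were 2.38 (1394082_at) and -0.92 (1383429_at) for Psmd14, 1.71 for Psmd6, 1.71 for Psmd8, 0.98 and 0.58 for Psmd7, and -0.67 and -0.44 for Psmd11. Among chaperones they were 1.27 for Psmd9, 1.25 for Psmg4 and 0.60 for Psmg3. Among activators they were 1.90 for Psme1, and -0.97 (1368817_at) and 0.60 (1368818_at) for Psme4. Psmc3ip, which shares only the prefix, had 0.65.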

How the results depend on the processing

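Total counts of called proteasome probe sets, both directions together, stayed within 1.5 times the reported value under every alternative run, except with the 3' to 5' index in the model. That fit called 10 for the stretch main effect in place of 29, 3 for the interaction in place of 28, 6 for stretch at low shortening in place of 35, 11 for shortening at low stretch in place of 37 and 13 for low-low against the other groups in place of 40. It called 22 for the shortening main effect in place of 28, 3 higher and 19 lower, and all 10 for the stretch main effect were lower. For the main effects, shares of all probe sets were not counted in that fit. In it 8 values changed sign and none of these passed: Psmb2 had 0.046 for the stretch main effect, 0.25 for stretch at low shortening and -0.25 for low-low; Psmd3 had 0.073 for stretch at low shortening and -0.12 for low-low; Psmb7 had 0.0093 for shortening at low stretch and -0.15 for low-low; and Psmb3 had -0.091 for the interaction. The cause of these sign changes was not tested. Of the calls lost in that fit, many had estimates of the same sign that grew by any amount or shrank by no more than 1.5 times. These were 18 of 27 for low-low, 16 of 25 for the interaction and 12 of 19 for the stretch main effect. They were 19 of 29 for stretch at low shortening and 19 of 26 for shortening at low stretch. The median SE for low-low was 0.11 without and 0.29 with the index. Leaving out 1 array gave 24 to 29 calls for the stretch main effect, 26 to 29 for shortening, 24 to 29 for the interaction, 30 to 36 for stretch at low shortening, 32 to 38 for shortening at low stretch, 32 to 39 for low-low, and 0 to 0 for each input while the other was high. Split by direction the smaller counts moved more: 2 to 7 in place of 6 higher for the stretch main effect, 7 to 11 in place of 11 higher for shortening at low stretch, and 7 to 11 in place of 11 lower for low-low. A replicate block gave 39 calls for low-low, 27 for each main effect, 26 for the interaction, 33 for stretch at low shortening, 36 for shortening at low stretch and 0 elsewhere; the arrays share only a number. Repeated quantile normalization moved the median low-low difference of all probe sets from -0.05 to -0.07, turned no direction, ended the low-low calls of Psma7, Psmb2, Psmb7 and Psme2, and gave 9 in place of 4 higher calls for the shortening main effect. Proteasome calls for low-low were then 25 higher and 13 lower, against 29 and 11. Over all probe sets, calls for low-low were 4743 higher and 5635 lower, against 5134 and 5320. Precision is limited by 3 arrays per group, and the low-low group differs from the others in the 3' to 5' index.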
